A study of Mus musculus with 28 samples.

Results

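Lx and L1_Mus are 2 groups of old subfamilies of the L1 retrotransposons of the mouse. The integrants described here were the rows of class LINE/L1 in the deposited repeat counts whose name begins with Lx or L1_Mus and which held at least 16 reads summed over the 16 RNA libraries. These were 6332 of 452532 annotated Lx and L1_Mus integrants, 4114 of them Lx and 2218 L1_Mus, in 22 subfamilies. They stood among 123880 integrants of transposable elements (TEs) that passed the same limit. The 6332 integrants fell into 5203 loci when neighbours within 1000 bp were joined, and 1985 of them shared a locus with another one, so they were not independent of each other.

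RNA came from J1 mouse embryonic stem cells (mESC) of the strain label 129S4/SvJae in 2i and LIF. Cells were wild type (WT, 3 libraries per hairpin), a triple knockout of Dnmt1, Dnmt3a and Dnmt3b (DNMT TKO, 3 per hairpin) or a triple knockout of Tet1, Tet2 and Tet3 (TET TKO, 2 per hairpin). Every culture was transduced with a lentiviral hairpin, either an empty one (shEmpty) or one against Kap1 (shKap1), selected with puromycin and collected after 5 days. The knockout lines came from other laboratories, so that genotype and line cannot be told apart. According to the study's methods, the replicates of a group were separate experiments.

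Reads counted on genes ran from 18108431 to 29373696 per library, those on TEs from 898152 to 1803819, and those on the 6332 integrants from 47581 to 103364. The targeted gene Trim28, which encodes KAP1, fell from 1752.3 ± 207.0 to 165.0 ± 21.9 CPM (counts scaled to 1000000 gene reads per library) in WT, from 1868.4 to 427.0 in DNMT TKO and from 1834.9 to 165.7 in TET TKO (means, SD for n = 3). Knockdown therefore left more Trim28 RNA in DNMT TKO than in the other lines. In shEmpty libraries Dnmt1, Dnmt3a and Dnmt3b stood at 489.7, 63.0 and 155.8 CPM in WT and at 156.3, 7.65 and 25.2 in DNMT TKO. Tet1 and Tet2 stood at 654.5 and 407.8 in WT and at 233.0 and 91.1 in TET TKO, while Tet3 stood at 13.9 and 13.8. Of 9 pluripotency genes, 8 were tested, and 4 fell after shKap1 in WT (Sox2, Klf4, Tbx3 and Prdm14), 1 in DNMT TKO and 2 in TET TKO. Pou5f1, the Oct4 gene, stood at 838.2 ± 2.84 CPM in WT shEmpty. Of 7 tested markers of other cells, 3 rose (Sox17, Pax6 and Vim) and 2 fell (T and Col1a1) in WT. Of all 20321 tested genes 10.8% were called higher and 6.54% lower in WT. The part of the changes in pluripotency genes and markers in the results below was not tested.

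L1 elements copy themselves through an RNA that runs from an internal promoter and encodes the proteins needed for a new insertion. Most genomic copies are cut short at their start and mutated, and old subfamilies such as Lx and L1_Mus are thought to hold no copy that can still move, unlike the young L1Md_A, L1Md_T and L1Md_Gf. KAP1 is a corepressor that KRAB zinc finger proteins bring to retrotransposons, where it recruits the histone methyltransferase SETDB1 and H3K9me3. DNMT enzymes methylate cytosine, and TET enzymes oxidise that mark to 5-hydroxymethylcytosine (5hmC).

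Several of the integrants that changed most after shKap1 lay against the long terminal repeat (LTR) of another retrotransposon. The junctions of 5 such integrants are shown because their values open the results. Integrants named for their change were picked by the values given, and some passed the read limit through shKap1 reads alone. Their p-values and lack of overlap are therefore no separate support. Bases are those of the mouse genome build mm9, 5′ to 3′ on the strand of the L1, with bases of the Lx or L1_Mus integrant in capitals and those of the neighbour, and of the few bases between, in lower case.
L1_Mus4 behind an ETn provirus, chr9:4084482-4084601 (+): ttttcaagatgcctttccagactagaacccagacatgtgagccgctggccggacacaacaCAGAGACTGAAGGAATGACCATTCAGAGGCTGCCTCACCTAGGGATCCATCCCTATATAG
L1_Mus1 behind an IAP provirus, chrX:154057073-154057192 (-): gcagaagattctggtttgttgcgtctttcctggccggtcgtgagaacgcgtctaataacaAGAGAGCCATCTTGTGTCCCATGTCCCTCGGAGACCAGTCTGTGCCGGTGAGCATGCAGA
Lx2 behind RLTR9E, chr10:57998859-57998978 (-): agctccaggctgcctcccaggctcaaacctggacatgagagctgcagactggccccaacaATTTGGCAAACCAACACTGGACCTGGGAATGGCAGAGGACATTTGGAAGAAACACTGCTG
Lx3C behind IAPLTR2b, chr4:146839770-146839905 (-): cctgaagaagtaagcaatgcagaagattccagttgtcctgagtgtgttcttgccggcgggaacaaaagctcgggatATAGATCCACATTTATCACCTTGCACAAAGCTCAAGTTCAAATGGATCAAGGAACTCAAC
Lx9 before RMER20A, chr5:125859498-125859619 (+): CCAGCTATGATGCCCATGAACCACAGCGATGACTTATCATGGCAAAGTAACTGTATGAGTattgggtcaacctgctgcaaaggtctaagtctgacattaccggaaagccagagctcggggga

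In 3 of the 5, the L1 starts at the base after the end of the LTR. Between the Lx3C and its IAP element, and between the Lx9 and RMER20A, lie only the few bases shown. IAP (intracisternal A particle) and ETn elements are endogenous retroviruses of the ERVK class, and RLTR9E and RMER20A are LTRs of that class.

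The L1_Mus4 at chr9:4084542-4085106 (565 bp, + strand, outside genes, on an H3K9me3 region) held no read in any shEmpty library. It thus passed the read limit through shKap1 reads alone. In shKap1 libraries it reached 7.02, 5.67 and 6.45 CPM in WT, 2.02, 1.36 and 1.34 in DNMT TKO, and 7.08 and 7.65 in TET TKO. With a floor of 3 reads set for the whole group it was at least 157.1-fold higher in WT, at least 38.5-fold in DNMT TKO and at least 134.8-fold in TET TKO (edgeR adjusted p = 9.9e-78 in WT). The groups did not overlap in any of the 3 lines. The ETn provirus that ends at the base before it, on the same strand, rose by 9.87, 7.41 and 7.80 on the log2 scale in WT, DNMT TKO and TET TKO. Log2 changes of neighbouring TEs, here and below, are fitted edgeR values without such a floor. By the same measure the L1_Mus4 rose by 10.2, 8.2 and 10.4. A read across a junction can be counted on both elements, so changes of adjoining elements, here and below, are not separate measurements. How many reads were shared was not tested.

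The Lx2 at chr10:57998826-57998918 is 93 bp long and lies on the strand opposite to Ccdc138, a coiled-coil domain gene. It held no read in WT shEmpty and 4.67, 4.03 and 3.46 CPM in WT shKap1, at least 100.5-fold higher (edgeR adjusted p = 5.9e-62). The ratio was 48.9 in DNMT TKO and 353.5 in TET TKO, the latter with a 95% counting interval from 62.9 to 14012.8 since shEmpty held a single read. The RLTR9E in front of it rose by 9.31 and the MMERVK9C element 20 bp behind it by 10.41 on the log2 scale in WT, while Ccdc138 stood at 10.2 and 9.65 CPM.

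Both Lx3C integrants beside the IAP element, chr4:146838592-146839541 (950 bp) and chr4:146839562-146839829 (268 bp), overlapped a KAP1 and an H3K9me3 region. The KAP1 region spans chr4:146839016-146847810, which also holds the IAP element. The integrants are 2 members of 1 locus. The longer one went from 0 in each WT shEmpty library to 4.77, 5.11 and 5.7 CPM in shKap1, at least 128.6-fold higher (edgeR adjusted p = 3.7e-65). The shorter one went from 0 to 3.77, 3.25 and 2.99, at least 82.6-fold higher (edgeR adjusted p = 1.9e-42). In DNMT TKO the longer one was 213.9-fold higher (counting interval 38.0 to 8491.3) and the shorter one at least 30.3-fold. In TET TKO they were at least 53.6-fold and at least 19.2-fold higher. They lie within the span of Gm16889, a gene model with 2 reads in all libraries together, and the IAP element upstream rose by 10.2 on the log2 scale in WT.

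Outside genes, 3 further integrants met the naming rule for rises in WT. The L1_Mus1 at chr9:5931413-5933210 held no read in WT shEmpty and 4.14, 2.77 and 3.78 CPM in shKap1, at least 87.1-fold higher (edgeR adjusted p = 7.2e-58), and it was 61.8-fold higher in DNMT TKO and 97.7-fold in TET TKO. An L1Md_A that starts 1304 bp behind it rose by 6.55 and an IAP provirus 4767 bp in front of it by 6.80 on the log2 scale in WT. The L1_Mus1 at chr2:37087658-37091703 (4046 bp) went from 0 to 3.2, 1.52 and 1.76 CPM in WT, at least 52.5-fold higher (edgeR adjusted p = 4.1e-37). The L1Md_F2 next to it rose by 7.03. The groups of these integrants did not overlap in WT.

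The Lx9 at chr5:125859206-125859557 differed between lines already without the knockdown. It held no read in WT shEmpty, 0.152, 0.207 and 0.463 CPM in DNMT TKO shEmpty, and 0.529 and 0.601 in TET TKO shEmpty. After shKap1 it stood at 1.99, 2.77 and 2.77 in WT, 3.27, 2.54 and 2.15 in DNMT TKO, and 3.38 and 4.21 in TET TKO. The fold was at least 62.7 in WT, 9.26 in DNMT TKO and 6.69 in TET TKO. RMER20A next to it rose by 8.92, 2.60 and 2.78 on the log2 scale, so that the LTR, too, changed most in WT.

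In exons of genes, the L1_Mus2 at chr13:3492937-3493495 lies in an exon of 2810429I04Rik, a noncoding gene. It went from 0 to 1.05, 0.909 and 0.906 CPM in WT (at least 23.6-fold higher, edgeR adjusted p = 1.3e-16) and from 0.423 and 0.338 to 1.99 and 2.21 in TET TKO (5.48-fold). The gene itself went from 0.179 ± 0.069 to 35.5 ± 0.797 CPM in WT, from 1.25 to 22.9 in DNMT TKO and from 11.6 to 56.6 in TET TKO. Gene and integrant were both above 0 in TET TKO before the knockdown.

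Falls were fewer. The Lx5 at chr6:83827313-83827858 held 0.944, 0.569 and 0.778 CPM in WT shEmpty and none in shKap1, at least 15.0-fold lower (edgeR adjusted p = 1.6e-12). The Lx7 at chr2:135474069-135474263 went from 2.33, 1.42 and 1.52 to 0.0524, 0.0866 and 0, 34.1-fold lower (counting interval 11.4 to 167.7), and was 3.83-fold lower in DNMT TKO and 7.36-fold in TET TKO. Both named falls within genes lay on the strand opposite to a gene and on an H3K4me3 region, the mark of active promoters. The Lx8 at chr18:80387955-80389018 fell from 0.944, 0.711 and 0.92 to 0 (at least 17.2-fold, edgeR adjusted p = 1.1e-14) opposite Rbfa, a ribosome binding factor gene that stood at 40.1 and 24.4 CPM. The Lx3C at chr4:116200027-116200916 fell from 1.67, 2.31 and 1.91 to 0, 0.0433 and 0 (122.1-fold, counting interval 21.6 to 4853.0) opposite Ipp. Ipp, a gene named for an IAP promoter, fell from 226.4 ± 8.89 to 45.6 ± 2.54 CPM in WT and stood at 9.25 and 9.27 in DNMT TKO.

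Integrants named for the mutant lines differed more between lines. The L1_Mus3 at chr9:98674947-98675409 held no read in any WT library, went from 0 to 8.12, 11.2 and 7.16 CPM in DNMT TKO (at least 216.4-fold higher, edgeR adjusted p = 2e-82) and to 0.37 and 0.411 in TET TKO. It starts at the base after an MTB_Mm LTR, which rose by 6.97 in DNMT TKO. The L1_Mus1 at chrX:154052361-154057132 (4772 bp, on a KAP1 region) went from 0 in every shEmpty library to 0.629, 2.08 and 1.55 in WT, 5.91, 4.94 and 3.37 in DNMT TKO, and 2.64 and 2.26 in TET TKO. Its IAP provirus rose by 8.65, 6.19 and 5.94 on the log2 scale in those lines. The L1_Mus3 at chr14:111370997-111371723 went from 0 to 6.67 and 5.13 in TET TKO, at least 108.9-fold higher (edgeR adjusted p = 8.1e-44), and was 9.43-fold higher in WT. Among falls, the Lx2B at chr9:17279574-17280814 went from 2.54, 3.14 and 4.09 to 0.961, 0.611 and 0.482 in DNMT TKO (4.97-fold lower, edgeR adjusted p = 4.6e-13). The Lx3A at chr19:23042847-23044457, opposite Trpm3, a cation channel gene, fell 13.4-fold in WT and 17.9-fold in TET TKO. Its 4.94-fold lower level in DNMT TKO rested on 16 reads in shEmpty and 3 in shKap1 (edgeR adjusted p = 0.022) and was not called by DESeq2 (adjusted p = 0.099) or limma-voom (adjusted p = 0.1).

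**Figure D1:**
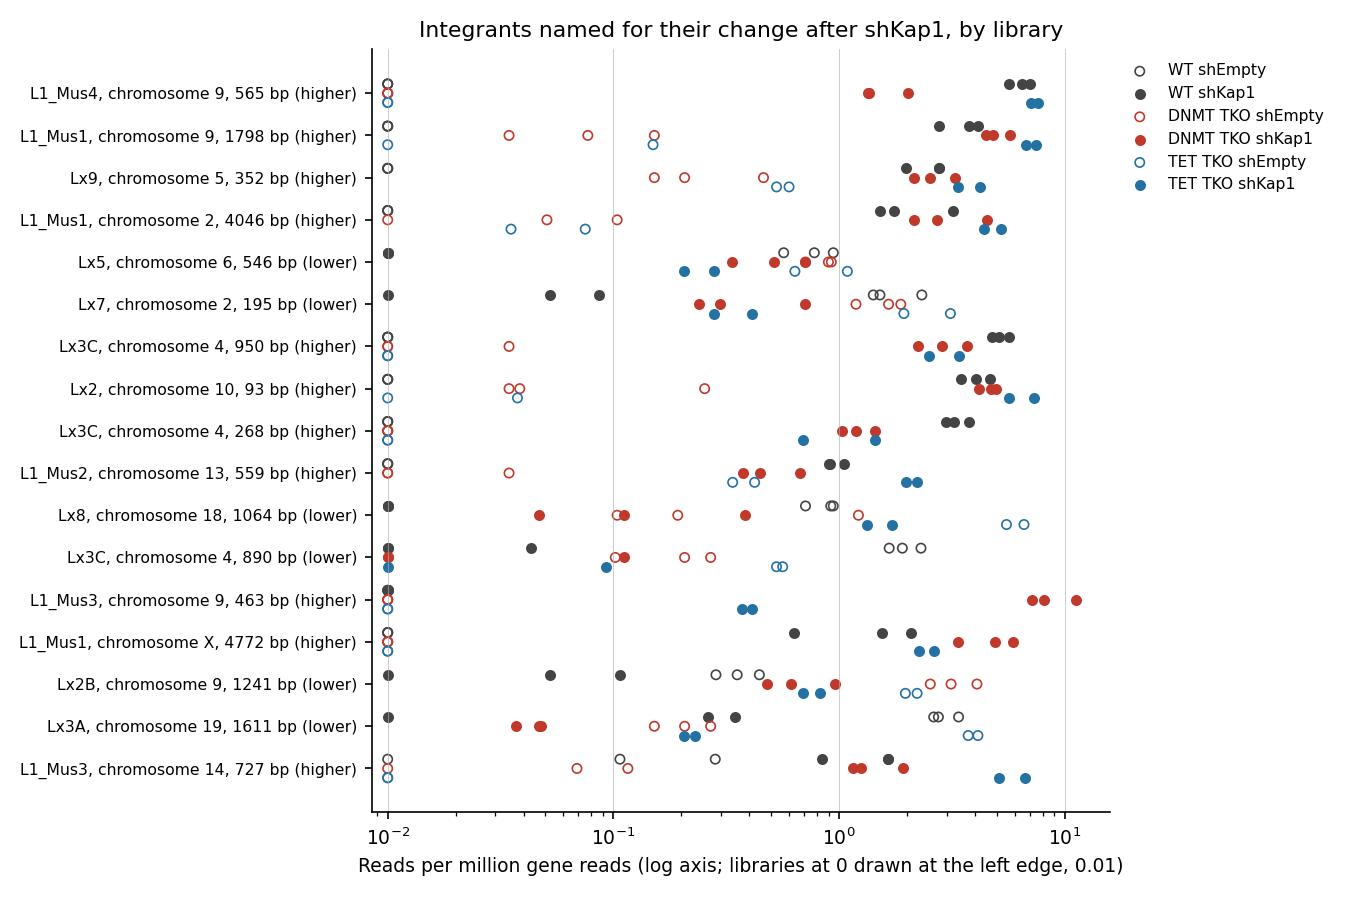
CPM of the integrants named for their change after shKap1, on a log axis, with open points for shEmpty and filled points for shKap1 libraries and libraries at 0 drawn at 0.01. In WT, shEmpty libraries of the risers are at or near 0 and shKap1 libraries reach up to 7.02, and the fallers show the reverse order.

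Among the members that passed the read limit, more were called higher than lower after shKap1 in each line. A call needed an adjusted p below 0.05 in the edgeR quasi-likelihood test over all 123880 TE integrants and a change of at least 2-fold. In WT, 1286 of 6332 integrants (20.3%) were called higher, against 12.1% of all tested TE integrants, and 150 (2.37%) lower, against 2.05%. In DNMT TKO, 1318 (20.8%) were called higher against 15.0%, and 60 (0.948%) lower against 0.944%. In TET TKO, 1696 (26.8%) were called higher against 14.7%, and 82 (1.3%) lower against 0.971%. The median change of the members was 0.63, 0.70 and 0.78 on the log2 scale in WT, DNMT TKO and TET TKO, and that of all TEs 0.23, 0.27 and 0.34. Over the integrants with at least 16 reads in shEmpty libraries it was 0.04, 0.14 and 0.10 for the members and -0.08, -0.01 and -0.03 for all TEs, so that the medians above rest largely on integrants of few shEmpty reads. A limit on shEmpty reads in turn favours integrants that are high there. With scaling to TE reads in place of gene reads, the median of all TEs was 0.15, 0.08 and 0.15, so that changes are to be read relative to that shift.

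These counts depend on the test and on the read limit. The DESeq2 Wald test called 766 members (12.1%) higher in WT, 710 (11.2%) in DNMT TKO and 931 (14.7%) in TET TKO, against 7.95%, 8.77% and 8.63% of all TE integrants by that test. The integrants held 1191741 reads in all with a median of 38, and 59.6% held fewer than 50. The largest alone held 10.3% of the reads and the 100 largest 55.4%. In the 8 shEmpty libraries 466 integrants held no read, and 3600 (56.9%) fewer than 16. An integrant that passed the limit only through shKap1 libraries had to be higher there, so the counts above are no measure free of the limit. Of 2732 members with at least 16 reads in shEmpty libraries, 324 (11.9%) were called higher in WT, 342 (12.5%) in DNMT TKO and 296 (10.8%) in TET TKO. The shares over 68268 TE integrants with as many shEmpty reads were 6.58%, 9.12% and 7.12%. Lower in WT were 5.27% of these members and 3.63% of these TEs. Of the members called higher in WT, 480 (37.3%) had no read in WT shEmpty.

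Calls overlapped between lines. Of the integrants called higher, WT and DNMT TKO shared 661 (51.4% of the WT list and 50.2% of the DNMT TKO list), WT and TET TKO 958 (74.5% and 56.5%), and DNMT TKO and TET TKO 775 (58.8% and 45.7%). Over all tested TE integrants the same shares were 63.7% and 51.4%, 72.6% and 59.9%, and 58.0% and 59.4%. All 3 lines shared 539 of 2445 members called higher in any (22%), against 27.9% of all TEs. Opposite calls numbered 6 between WT and DNMT TKO, 2 between WT and TET TKO and 1 between both mutants, and 121, 50 and 37 over all TEs.

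The position relative to genes went with the response. Of the members, 3546 lay outside genes, 2118 in genes on the same strand (240 of them in exons), 564 in genes on the opposite strand and 104 in genes on both strands. Outside genes, 941 (26.5%) were called higher in WT, 958 (27%) in DNMT TKO and 1280 (36.1%) in TET TKO. The shares of all TEs outside genes were 23.8%, 31.1% and 29.6%. The WT share was close to that of the members, the TET TKO one below it and the DNMT TKO one above it. All shares by position carry the read limit given above and were not split by shEmpty reads. Differences between positions are thus not free of that limit. On the strand of a host gene 190 (8.97%), 162 (7.65%) and 205 (9.68%) were called higher, against 3.55%, 3.22% and 3.56% of all such TEs. On the opposite strand 137 (24.3%), 177 (31.4%) and 195 (34.6%) were, against 20.1%, 26.5% and 26.4% of all such TEs. Lx and L1_Mus outside genes were alike in WT, with 595 of 2247 (26.5%) and 346 of 1299 (26.6%).

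Summed reads were read next for the same positions. Outside genes, the 3 WT shEmpty libraries held 1228.4, 1192.1 and 1194.2 CPM and the shKap1 libraries 1704.5, 1842.9 and 1884.2. The sum rose from 1169.7 ± 6.73 to 1860.1 ± 83.6 in DNMT TKO (n = 3) and from 1327.4 ± 0.897 to 2879.8 ± 66.8 in TET TKO (n = 2). On the strand of host genes the WT libraries held 1246.4, 1180.6 and 1149.6 in shEmpty and 1513.9, 1493.4 and 1649.1 in shKap1. In DNMT TKO the same sum lay at 1509.9, 1345.7 and 1485.8 in shEmpty and at 1510.9, 1436.0 and 1503.8 in shKap1, and these groups overlapped. On the opposite strand the sum went from 116.8 ± 0.746 to 196.1 ± 2.25 in WT, from 70.6 ± 1.27 to 195.1 ± 20.5 in DNMT TKO and from 91.3 ± 5.89 to 346.4 ± 4.31 in TET TKO.

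**Figure D2:**
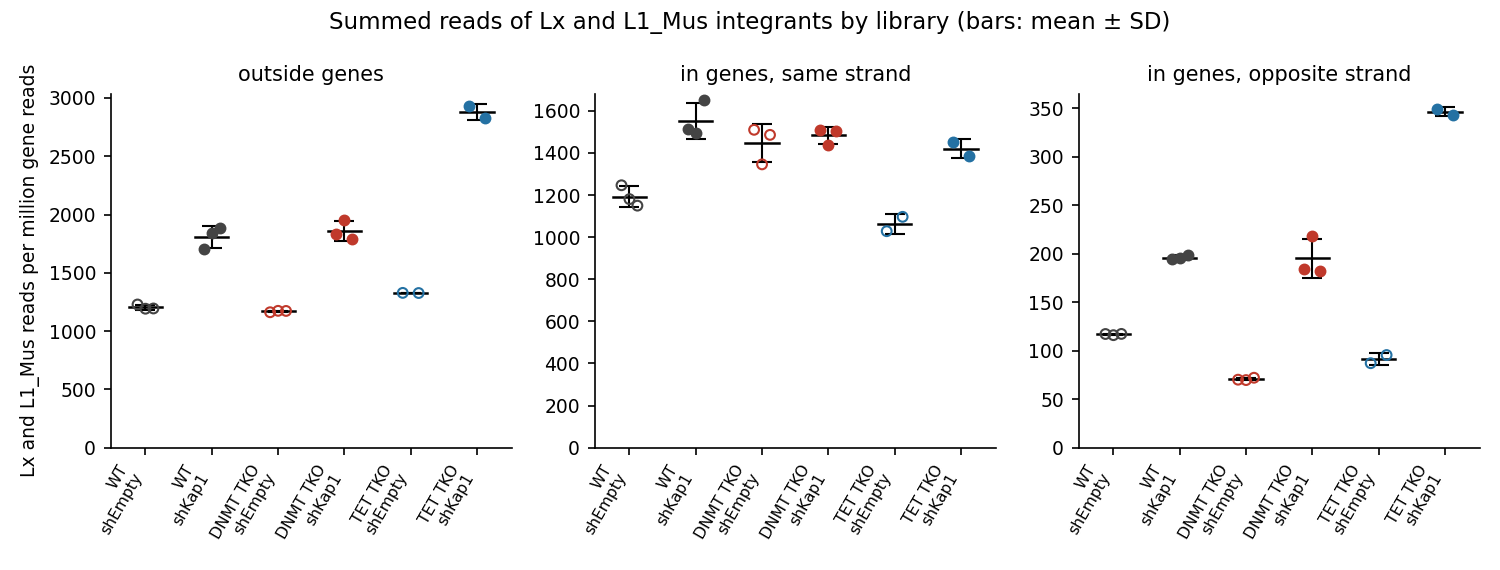
Summed reads of Lx and L1_Mus integrants in CPM in each library, outside genes, in genes on the same strand and in genes on the opposite strand, with open points for shEmpty, filled points for shKap1 and bars for mean ± SD. Every shKap1 library lies above every shEmpty library of its line, except in DNMT TKO on the strand of host genes.

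The ratio of reads outside genes to reads in genes was tested within libraries, so that scaling did not enter it. It rose by 0.40 on the log2 scale as the mean of the lines, by 0.18 in WT, 0.52 in DNMT TKO and 0.52 in TET TKO (two-sided exact permutation test within lines, p = 0.00083, the smallest that 2400 arrangements can give, adjusted p = 0.0014 over 5 ratios). In WT the libraries lay at -0.203, -0.169 and -0.133 in shEmpty and at -0.047, 0.084 and -0.012 in shKap1. With genes taken only where an integrant lay wholly inside, the mean rise was 0.24, with 0.05 in WT, where the libraries then overlapped (0.308, 0.392 and 0.389 in shEmpty, 0.326, 0.464 and 0.46 in shKap1). With integrants at least 10 kb from any gene as the outside set the mean rise was 0.69. Within genes, the ratio of opposite-strand to same-strand reads rose by 1.10 (exact permutation p = 0.00083). Counts did follow strand, since old L1 in exons held 715.0 reads per kb on the strand of the gene and 3.07 on the other. All these ratios are of sums over tested integrants, so the read limit given above enters them and their p-values.

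The 22 subfamilies were then compared. Shares of integrants called higher in WT ran from 14.3% of 554 Lx8 integrants to 33.3% of 72 Lx3B integrants among the 21 subfamilies with at least 20 tested integrants. These shares carry the read limit described above. In DNMT TKO the range was from 13.0% for Lx8 to 33.3% for Lx3A and Lx2A1, and Lx7 (13.2%), Lx8 (13.0%) and Lx8b (13.4%) stood below the 15.0% of all TEs. In TET TKO it ran from 19.5% for Lx8 to 44.4% for Lx3B. L1_Mus1 to L1_Mus4 ran from 18.4% to 24.7% in WT and from 25.8% to 27.9% in TET TKO. The other Lx subfamilies in WT stood at 15.4% for Lx9, 18.4% for Lx7, 18.5% for Lx2A1, 18.8% for Lx5, 19.1% for Lx6, 20.7% for Lx8b, 21.4% for Lx4B, 21.9% for Lx2B, 22.3% for Lx, 22.9% for Lx4A, 23.2% for Lx10, 24.1% for Lx3_Mus, 24.9% for Lx2, 25.0% for Lx3C and 25.6% for Lx3A. Among integrants with at least 16 reads in shEmpty libraries, 20 subfamilies had at least 20. Their shares called higher ran from 3.96% for Lx8b to 20.3% for Lx3_Mus in WT, from 2.97% for Lx8b to 22.8% for Lx3_Mus in DNMT TKO and from 3.96% for Lx8b to 19.4% for Lx3B in TET TKO. Of the 20, 17 stood above the 6.58% of all TEs under that limit in WT, 13 above 9.12% in DNMT TKO and 15 above 7.12% in TET TKO. Lx8 at 6.35%, Lx4A at 4.92% and Lx8b stood below in WT, and Lx3A, among the highest without that limit, stood at 7.41%. The members of a subfamily also differ in reads and in the share that lies in genes.

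**Figure D3:**
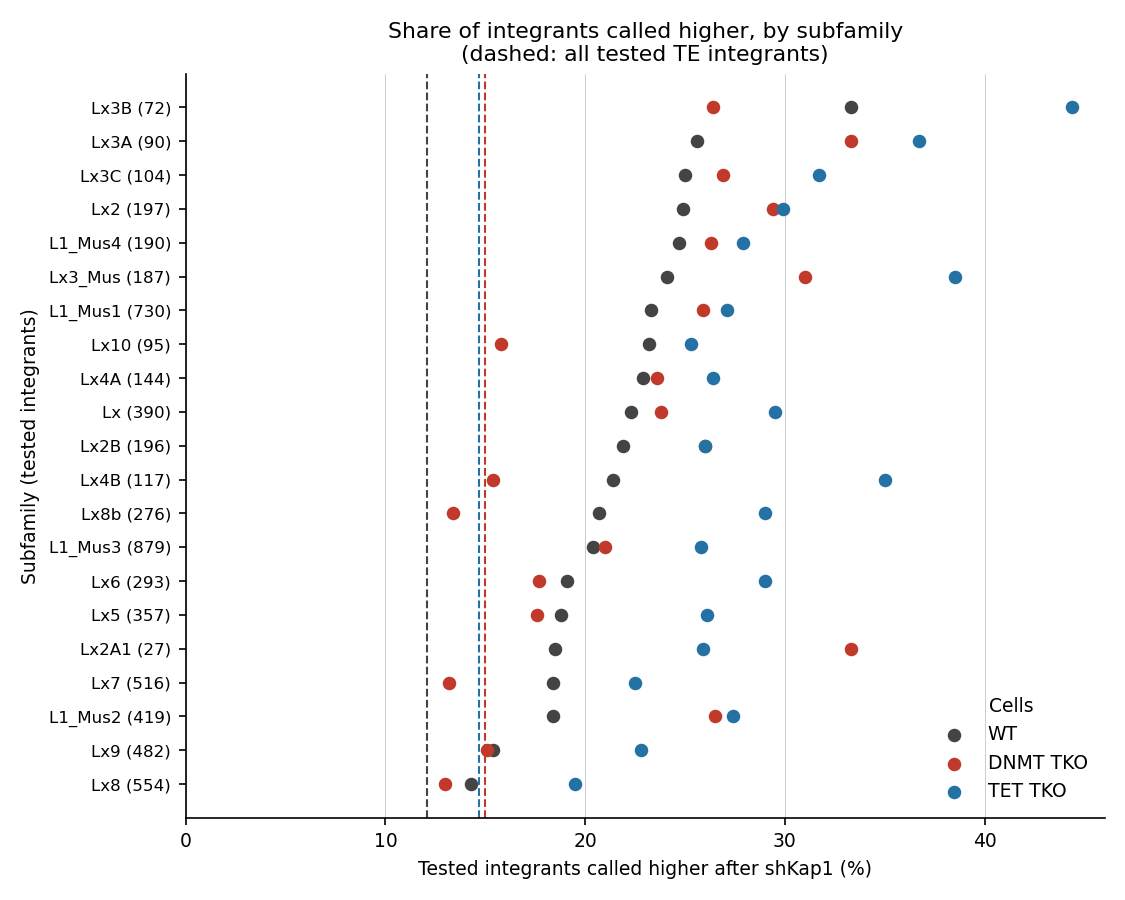
Percent of tested integrants called higher after shKap1 in each subfamily with at least 20 tested integrants, in WT, DNMT TKO and TET TKO, with dashed lines at the share of all tested TE integrants (12.1%, 15.0% and 14.7%). All subfamilies lie right of the dashed line in WT and TET TKO, and Lx7, Lx8 and Lx8b lie left of it in DNMT TKO.

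Reads summed over each subfamily gave tests that do not need many reads on 1 integrant. The sums ran over the tested integrants, 56.9% of which held under 16 shEmpty reads. The read limit described above therefore enters the sums and their split by position too. In WT 21 of 22 sums were higher at an adjusted p below 0.05, against 52.9% of the sums of all 2972 repeat names, in DNMT TKO 19 against 57.0% and in TET TKO 21 against 55.9%. None was lower in any line by edgeR (0 at an unadjusted p below 0.05, and 0 by limma-voom), but with scaling to TE reads Lx7 was lower in DNMT TKO. The median change of the 22 sums was 0.62, 0.69 and 1.21 on the log2 scale. The largest rises were those of Lx3_Mus, 1.23 ± 0.145 in WT, 1.5 ± 0.146 in DNMT TKO and 2.54 ± 0.184 in TET TKO (log2 ± SE, edgeR adjusted p = 3.6e-06, 3.7e-07 and 1.9e-08). Lx10 rose by 1.19 ± 0.102 and Lx4B by 1.13 ± 0.093 in WT. L1_Mus1, L1_Mus2, L1_Mus3 and L1_Mus4 rose by 0.39, 0.62, 0.62 and 0.85 in WT and by 0.66, 1.47, 1.28 and 1.55 in TET TKO. Rises in WT of 0.93 for Lx2, 0.96 for Lx3C, 1.02 for Lx2A1 and 0.82 for Lx7 stood beside smaller ones of 0.65 for Lx8b, 0.67 for Lx2A, 0.58 for Lx, 0.49 for Lx9, 0.45 for Lx4A, 0.42 for Lx8 and Lx2B, 0.25 for Lx3A, 0.24 for Lx6 and 0.19 for Lx5. In TET TKO the same subfamilies rose by between 0.53 (Lx5) and 2.08 (Lx2A). Lx3B did not pass in any line, at 0.15, -0.03 and 0.14, and 87.5% of its reads came from 1 integrant.

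Outside genes 21 subfamily sums were higher in WT, 21 in DNMT TKO and 22 in TET TKO, with medians of 1.03, 0.99 and 1.67, against 58.9%, 63.8% and 63.0% of the sums of all repeat names there. On the strand of host genes 11, 8 and 13 were, with medians of 0.28, 0.24 and 0.39, against 26.3%, 24.9% and 24.2%. The 8 in DNMT TKO on that strand became 3 without DNMT TKO shEmpty replicate 2. There 1 sum was lower in DNMT TKO, Lx7 at -0.32 (edgeR adjusted p = 0.026), against 4.74% of all names. On the opposite strand 17, 20 and 19 were higher, against 48.8%, 55.5% and 54.9%, and 3 were lower in WT, against 5.0%. With the 10 integrants that held most reads left out of all sums, an alternative chosen after seeing the data, 22 subfamilies were higher in each line. In WT the rise of L1_Mus1 was then 0.91 and that of Lx5 0.51.

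A few integrants set several sums. The Lx3B at chrX:149341584-149347154 held 122349 reads and overlaps an exon of Rpl7a-ps12, a ribosomal protein pseudogene with near copies elsewhere, so that its reads are uncertain. It stood at 268.7, 268.0 and 262.2 CPM in WT shEmpty and at 264.9, 263.4 and 324.4 in shKap1. The Lx7 at chr12:110898902-110899486 held 72974 reads in an exon of Rian, a maternally expressed noncoding RNA. It went from 182.1, 149.4 and 147.8 to 338.1, 292.0 and 305.3 in WT and from 274.3, 244.0 and 277.8 to 153.7, 224.8 and 222.4 in DNMT TKO. Rian went from 382.6 to 742.1 in WT, from 645.2 to 456.2 in DNMT TKO and from 173.0 to 254.0 in TET TKO, the same directions as its integrant. The Lx7 sum rose by 0.82 ± 0.094 in WT and stood at -0.15 ± 0.093 in DNMT TKO (edgeR adjusted p = 0.19), and 58.1% of its reads came from this integrant. Without the 10 integrants of most reads, this one among them, the Lx7 sum rose by 0.29 in DNMT TKO (edgeR adjusted p = 0.00055). The L1_Mus1 at chr10:25825889-25830759, outside genes with 66087 reads, stood at 175.8, 184.8 and 176.2 in WT shEmpty and at 134.0, 158.2 and 160.4 in shKap1 (edgeR adjusted p = 0.11).

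Against each other and against L1Md subfamilies, the old subfamilies were compared as ratios within libraries by the same exact permutation test. These ratios, too, are of sums over tested integrants and carry the read limit given above. Lx fell against L1_Mus by 0.14 on the log2 scale as the mean of the lines (exact permutation p = 0.011, adjusted p = 0.014 over 5 ratios), with 0.00 in WT, -0.33 in DNMT TKO and -0.10 in TET TKO. With the replicate number as a block the adjusted p was 0.059. Old L1 fell against L1Md_A by 1.42 and against L1Md_F, L1Md_F2 and L1Md_F3 together by 0.54 (each exact permutation p = 0.00083, adjusted p = 0.0014). Against L1Md_T and L1Md_Gf the change was 0.39 in WT, -1.64 in DNMT TKO and -0.08 in TET TKO, with p = 0.082 for the mean in the exact permutation test. The summed change of L1Md_A was 1.35, 1.90 and 2.81 and that of L1Md_T 0.12, 2.04 and 0.92 in WT, DNMT TKO and TET TKO. In integrants called higher, L1Md_A stood at 18.4%, 48.4% and 31.4% and L1Md_T with L1Md_Gf at 8.56%, 40.1% and 16.4% in these lines, beside 20.3%, 20.8% and 26.8% for old L1. Among integrants with at least 16 reads in shEmpty libraries L1Md_A stood at 23.7%, 59.5% and 45.9% and old L1 at 11.9%, 12.5% and 10.8%, so that the order in WT turned.

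The difference of the knockdown response between lines was tested as an interaction. These contrasts share the WT libraries. For DNMT TKO against WT, 93 members (1.47%) were called higher against 1.33% of all TE integrants, and 42 (0.663%) lower against 0.473%. For TET TKO against WT, 73 (1.15%) were called higher against 0.831%, and 25 (0.395%) lower against 0.242%. With scaling to TE reads the share of higher calls in the latter went from 74.5% to 63.7% (58 higher, 33 lower). In both lines the number of higher calls also moved by over 1.5 times with DESeq2 and with limma-voom, as the section on processing lists.

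In subfamily sums, differences were called mainly in TET TKO. These sums include members that passed the read limit through shKap1 reads alone. Of members with under 16 shEmpty reads, 38.9% were called higher after shKap1 in TET TKO and 26.7% in WT. Of those with 16 or more, 10.8% and 11.9% were. In TET TKO 15 of 22 sums rose more than in WT, against 6.7% of all repeat names, and none less, against 2.73% (edgeR, 0 at an unadjusted p below 0.05, and 0 by limma-voom). The median difference was 0.67 on the log2 scale, with 1.31 for Lx3_Mus (edgeR adjusted p = 0.0019) and 1.41 ± 0.263 for Lx2A (adjusted p = 0.002), and with -0.04 for Lx4B. Sums of L1Md subfamilies also rose more in TET TKO, by 1.46 for L1Md_A, 1.37 for L1Md_Gf, 0.78 for L1Md_F, 0.60 for L1Md_F3 and 0.38 for L1Md_F2. L1Md_T did not pass, at 0.81 (edgeR adjusted p = 0.055). In DNMT TKO 1 of the 22 sums rose more, against 5.59%, and 1 less, against 4.31%. These were Lx6 at 0.32 ± 0.098 (edgeR adjusted p = 0.044) and Lx7 at -0.97 ± 0.132 (adjusted p = 0.0003), the latter with the Rian integrant in it and at -0.31 (adjusted p = 0.032) without the 10 integrants of most reads. The Lx6 call was lost when any of 14 of the 16 libraries was left out. By position, 15 sums rose more in TET TKO outside genes, against 7.85% of all repeat names there, 1 on the strand of host genes, against 2.74%, and 14 on the opposite strand, against 7.35%. The Lx8 sum on the opposite strand rose less, at -0.80 (edgeR adjusted p = 0.031), against 2.26% of all names. In DNMT TKO 9 sums on the opposite strand rose more, against 5.18%. Outside genes 3 rose more, against 5.79%, and 3 less, against 4.63%, and on the strand of host genes 1 (Lx7) rose less, against 2.08%.

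Single integrants show what such differences looked like. The L1_Mus1 at chr3:74027784-74028125 stood at 1.55, 1.25 and 1.1 CPM in WT shEmpty and 2.99, 1.73 and 2.24 in shKap1, and went from 0 to 1.59, 1.27 and 1.34 in DNMT TKO. It was thus lower in DNMT TKO before the knockdown, at least 31.4-fold (edgeR adjusted p = 1.1e-24). The L1_Mus1 at chr12:25021679-25022083 showed the reverse. It went from 0.0555, 0.0711 and 0.0354 to 4.93, 6.28 and 5.28 in WT, a ratio of 103.2, and stood at 0.102, 0 and 0.0385 in DNMT TKO shEmpty and at 0.144, 0 and 0.0371 in shKap1. Its interaction was -6.07 ± 1.298 (edgeR adjusted p = 0.006) and was not called without DNMT TKO shEmpty replicate 1 (adjusted p = 0.42).

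The Lx8 at chr10:17968119-17968758 went from 0 to 3.7, 2.92 and 2.97 in DNMT TKO and stood at 0.0524, 0.26 and 0.267 in WT shKap1. Its interaction (edgeR adjusted p = 0.048) was not called under 16 of the alternatives. The L1_Mus1 at chr6:73633413-73639438 (6026 bp, on an H3K9me3 region) went from 0 to 5.56 and 3.9 in TET TKO, at least 87.5-fold higher, and was 13.7-fold higher in WT, with 1.83, 2.34 and 2.45 after shKap1. Levels after shKap1 were thus above those of WT in both TET TKO libraries. The interaction of the L1_Mus3 on chromosome 14 was 6.91 ± 1.204 (edgeR adjusted p = 2.4e-05) and was not called without WT shEmpty replicate 3 (adjusted p = 0.099).

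Without knockdown, the lines differed in both directions. In DNMT TKO against WT shEmpty, 324 members (5.12%) were higher against 3.48% of all TE integrants, and 453 (7.15%) lower against 6.45%. With scaling to TE reads these were 397 and 395, so that no direction holds for the whole. In TET TKO 201 (3.17%) were higher against 1.74%, and 181 (2.86%) lower against 2.33%. Of the subfamily sums 3 were higher and 8 lower in DNMT TKO, against 13.3% and 12.8% of all repeat names, and with scaling to TE reads 8 were higher and 1 lower. In TET TKO 3 were higher and 5 lower, against 9.62% and 6.16%, and 6 and 2 with that scaling, so that no direction holds for either line. The former were Lx3B, Lx7 and Lx in DNMT TKO (0.69, 0.49 and 0.30) and Lx4B, Lx2 and Lx2B in TET TKO (0.57, 0.41 and 0.26). The Lx2 sum stood at 55.1 and 87.3 CPM in TET TKO shEmpty and at 57.5, 50.3 and 53.0 in WT shEmpty, so that these groups overlapped. Without the 10 integrants of most reads, Lx2B was lower in TET TKO, at -0.23 (edgeR adjusted p = 0.024), and Lx7 and Lx stood at 0.07 and 0.09 in DNMT TKO (adjusted p = 0.5 and 0.36). Lx2A stood lowest in both, at -1.17 and -0.90.

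Some integrants had reads in the shEmpty libraries of only some lines, or almost so. The Lx3B at chr2:174845929-174846553 held no read in any of the 6 WT libraries, 20.0, 14.8 and 14.2 CPM in DNMT TKO shEmpty, and 12.3 and 15.1 in TET TKO shEmpty. The Lx3B at chr2:176908513-176909132 likewise held none in WT, and was at least 77.1-fold higher in DNMT TKO and at least 58.6-fold in TET TKO. The L1_Mus2 at chr2:80644900-80645952 held 4.21, 2.69 and 3.51 in DNMT TKO shEmpty and none in shEmpty of the other lines, but 0.157, 0.26 and 0.213 in WT and 0.694 and 0.462 in TET TKO after shKap1. In the other direction, the Lx6 at chr7:111458020-111459588 stood at 1.55, 1.49 and 1.56 in WT shEmpty and held no read in DNMT TKO. It overlaps Trim12a, a TRIM family gene that stood at 11.4 in WT and 0.0128 in DNMT TKO. The Lx9 at chr12:68924371-68925079, on a KAP1 and an H3K9me3 region, stood at 2.0, 2.17 and 1.91 in WT shEmpty and at 0 in TET TKO shEmpty, at least 37.2-fold lower. In DNMT TKO shEmpty this Lx9 stood at 0.0508, 0 and 0, so that both mutant lines were below WT. The L1_Mus2 at chr9:107076730-107078260 stood at 2.28, 2.13 and 1.63 in WT and at 0 in TET TKO shEmpty, opposite Dock3, which stood at 5.87 and 5.59. In DNMT TKO shEmpty this L1_Mus2 stood at 0.203, 0.242 and 0.193, also below WT. For the 2 Lx3B without a read in WT and the Lx6 without one in DNMT TKO, whether the DNA there is the same in all lines was not tested.

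The neighbourhood of the members outside genes was described next. Of 941 called higher in WT, 66.0% had an LTR integrant called higher within 10 kb and 62.1% one on the same strand. Among 2518 not called these were 22% and 17.7%, and among 87 called lower 1.15% and 0%. An integrant of L1Md_A, L1Md_T, L1Md_Gf, L1Md_F, L1Md_F2 or L1Md_F3 called higher lay within 10 kb of 22.2%, 6.43% and 1.15% of these groups. The shares for LTRs were 56.6% against 23.0% in DNMT TKO and 67.7% against 17.3% in TET TKO. These shares are descriptions without a test and carry the read limit given above. They were not taken for other TE integrants, so whether they are a trait of Lx and L1_Mus was not tested. Members outside genes called higher in WT also held more reads, with a median of 67 against 30 for those not called.

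The share called higher went down with distance from such an LTR. In WT, 91 of 123 members outside genes (74.0%) were called higher when a same-strand LTR called higher lay within 100 bp upstream. The share was 64.2% at 101 to 1000 bp, 59.4% at 1001 to 5000 bp, 46.3% at 5001 to 10000 bp, 36.8% at 10001 to 50000 bp and 11.9% of 2207 members beyond. Downstream LTRs gave a like order, from 70.8% of 72 to 20.3% of 2758. LTRs that were tested and not called gave 19.3% within 100 bp upstream and 29.3% beyond 50000 bp, an order in the other direction. Opposite-strand LTRs called higher within 1000 bp upstream numbered 17 and gave no usable share, and those at 1001 to 5000 bp gave 54.1% of 37. At short distances a read can be counted on both the LTR and the member, and the part of such reads was not tested. All shares by distance carry the read limit given above, since a member can pass it through shKap1 reads alone. They were not split by shEmpty reads. Nor were they taken for other TE integrants, so whether the order is a trait of Lx and L1_Mus was not tested.

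**Figure D4:**
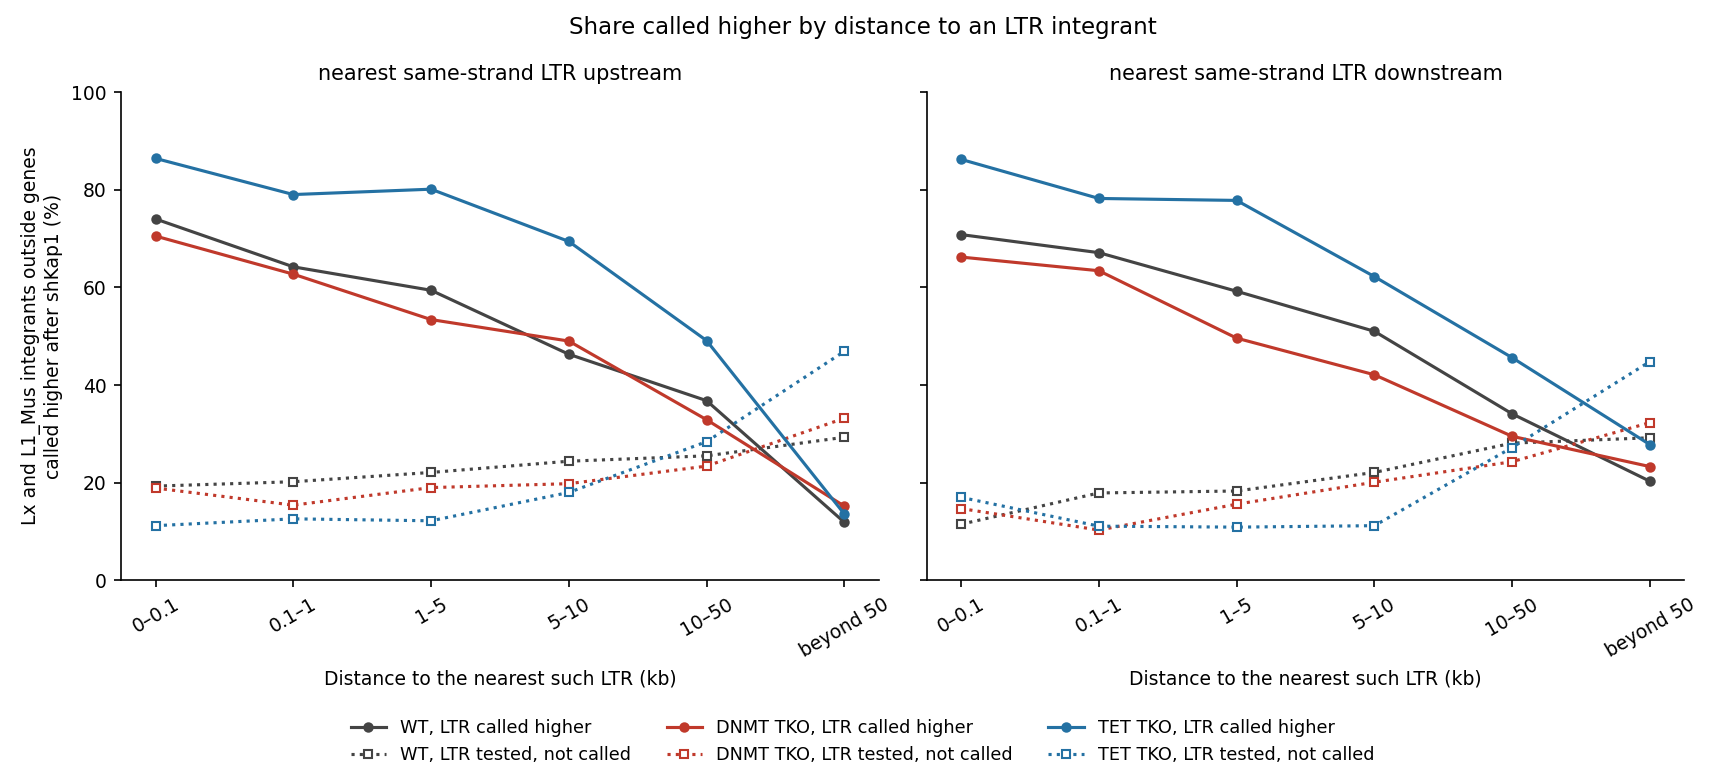
Percent of Lx and L1_Mus integrants outside genes called higher after shKap1 by distance in kb to the nearest LTR on the same strand, upstream on the left and downstream on the right, with solid lines for LTRs called higher and dotted lines for LTRs tested and not called. Solid lines run down from 74.0% to 11.9% in WT upstream, and dotted lines reach at most 28.4% within 50 kb in each line.

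In genes, members on the strand of the host moved with it. There were 2035 such members with 1 tested host, in 1372 hosts. Across these members the log2 change of the member and that of its host correlated with Pearson's r = 0.656 and Spearman's rho = 0.552 in WT. This is across integrants of the same libraries, several of them in 1 gene, and exonic ones can share reads with the gene count. For 230 members in exons r was 0.851, for 1805 in introns 0.608. Of 178 members called higher, 124 (69.7%) lay in a host called higher, while 10.8% of all tested genes were called higher and 6.54% lower in WT. Of the 271 members in hosts called higher 45.8% were called, and of 1693 in hosts not called 51 (3.01%). Such shares were not taken for other TE integrants in genes. The r was 0.566 in DNMT TKO and 0.622 in TET TKO. For 462 members on the strand opposite to a tested gene it was 0.282 in WT.

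Several hosts held more than 1 such integrant. In WT, 6 of 10 members in Zc3h12b, a gene of the CCCH zinc finger RNase family, were called higher, and the gene rose by 2.49 ± 0.319 on the log2 scale (edgeR adjusted p = 4.74e-06). All 4 members in Airn, the imprinted antisense RNA at Igf2r, were called, with the gene at 4.95 ± 0.717 (adjusted p = 1.86e-05). All 4 in 3110007F17Rik and all 3 in 2810429I04Rik were called, with the genes at 5.91 ± 0.592 and 7.52 ± 0.254. In contrast, 4 of 10 in Gm17317 were called while the gene stood at 0.62 (edgeR adjusted p = 0.198), and 2 of 3 in Plekhg1 while the gene fell by 1.05 (adjusted p = 0.000728).

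**Figure D5:**
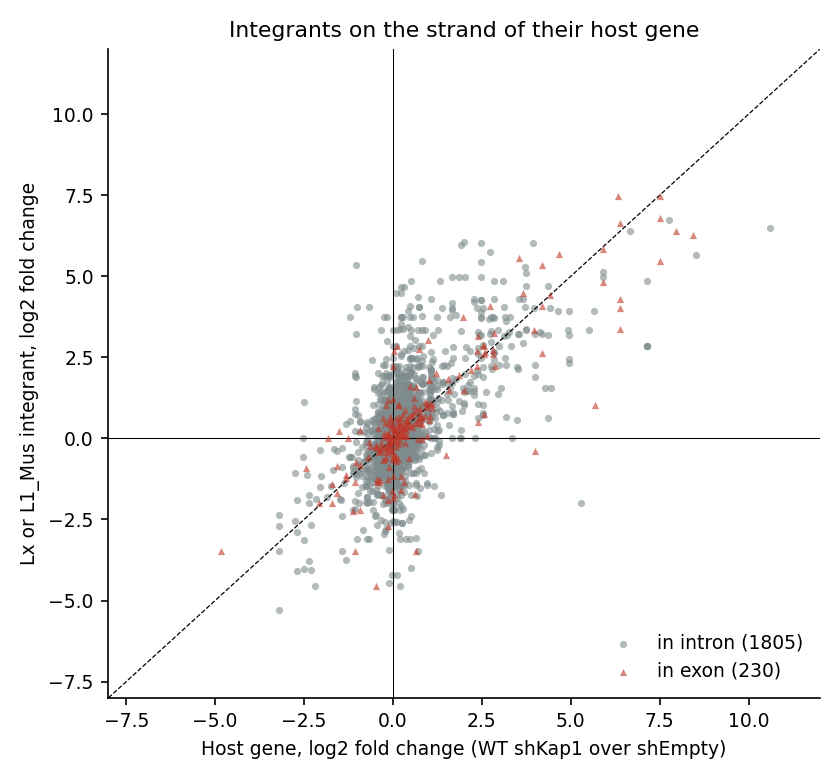
Log2 fold change after shKap1 in WT of 2035 Lx and L1_Mus integrants on the strand of their host gene against that of the host, in introns (1805, circles) and exons (230, triangles), with a dashed line of equal change. Exonic integrants lie along the dashed line (r = 0.851), and intronic ones scatter above it near a host change of 0.

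KAP1 and H3K9me3 regions of WT cells lay on few of the old L1. A KAP1 region touched 137 of the 6332 members (2.16%) with 1 bp or more, against 0.725% of all annotated Lx and L1_Mus integrants, 8.15% of all tested TEs and 55.3% of L1Md_A. An H3K9me3 region lay on 268 (4.23%), against 7.73% of all tested TEs and 37.4% of L1Md_A. L1Md_A are longer, with a median of 5393.5 bp against 565 bp. With at least 50% of the integrant covered, KAP1 regions lay on 0.458% of the members and 0.979% of L1Md_A, and H3K9me3 regions on 2.53% and 1.38%, so that the order for H3K9me3 turned. The share touched by KAP1 was 1.70% for Lx and 3.02% for the longer L1_Mus, and 0.462% and 0.451% with 50% covered. Among members called higher in WT 43 (3.34%) were on KAP1 and 92 (7.15%) on H3K9me3, and among those not called 93 (1.90%) and 174 (3.55%). Of all TE integrants called higher 32.1% were on KAP1 and 32.6% on H3K9me3, and of those not called 4.89% and 4.36%. H3K4me3 regions lay on 1.01% of members called higher, 2.70% of those not called and 7.33% of those called lower, and over all TEs on 2.76%, 7.63% and 15.6%.

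Bases under KAP1 regions in 2 members that rose in WT are shown, all 294 for the first and the middle 300 of 379 for the second, with CG dinucleotides, the main site of DNA methylation, in capitals (mm9, 5′ to 3′ on the strand of the L1).
L1_Mus1 on KAP1, chr9:5934219-5934512 (+): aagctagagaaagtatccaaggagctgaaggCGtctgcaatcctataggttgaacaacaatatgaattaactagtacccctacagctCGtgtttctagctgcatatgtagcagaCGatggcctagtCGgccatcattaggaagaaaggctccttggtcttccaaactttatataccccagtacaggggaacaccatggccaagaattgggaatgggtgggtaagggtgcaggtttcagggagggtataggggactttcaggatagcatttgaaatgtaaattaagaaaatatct
L1_Mus4 on KAP1, chr10:78978178-78978477 (+): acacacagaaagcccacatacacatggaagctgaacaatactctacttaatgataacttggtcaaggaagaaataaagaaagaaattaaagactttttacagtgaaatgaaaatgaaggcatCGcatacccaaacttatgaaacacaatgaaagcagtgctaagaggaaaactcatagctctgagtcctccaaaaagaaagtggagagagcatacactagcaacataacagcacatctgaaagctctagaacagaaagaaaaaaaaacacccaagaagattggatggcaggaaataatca

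The first belongs to the L1_Mus1 at chr9:5933244-5934512, which shares a locus with the chromosome 9 L1_Mus1 described above. It went from 0, 0 and 0.0354 to 3.04, 2.64 and 2.72 CPM in WT, a ratio of 207.5 (counting interval 36.7 to 8244.3), and ends 2 bp before the L1Md_A. The second belongs to the L1_Mus4 at chr10:78978138-78979812, which went from 0, 0.0356 and 0.0354 to 2.31, 2.47 and 2.13 (86.1, interval 23.4 to 717.6). In TET TKO shEmpty it stood at 1.3 and 1.2, above WT. The printed bases hold 4 and 1 CG. Neither KAP1 region is confined to the old L1. The first spans chr9:5934219-5935685 and runs on into the L1Md_A. The second spans chr10:78977566-78978516 and begins before the L1_Mus4.

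The members held few CG. Tested old L1 held 5.33 CG per kb pooled over their bases, an observed to expected ratio of 0.127, against 12.7 per kb and 0.294 for L1Md_A. Members called higher in WT held 4.64 and those not called 5.52 per kb, with medians per integrant of 3.97 and 4.86. Members on KAP1 regions held 10.2 per kb pooled over their bases (observed to expected 0.241), but their median per integrant was 4.69 and that of all members 4.68. By subfamily the median ran from 3.51 in Lx4B to 7.05 in Lx8. Median lengths were 467 bp for Lx and 900 bp for L1_Mus, and 667.5 bp for members called higher in WT against 534.5 bp for those not called, so that length and depth moved with the calls.

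5hmC was measured by immunoprecipitation in WT, with 1 usable library and 1 input per hairpin, so that no test was possible. The shEmpty libraries held 7824611 reads (5hmC) and 4590132 reads (input) over the region sets, and the shKap1 libraries 8817570 and 6522892. Over 128 KAP1 regions with a tested old L1 the median log2 change of 5hmC over input after shKap1 was 0.814, with quartiles of 0.321 and 1.214, against 0.644 over all 25992 KAP1 regions. It was 0.891 over 41 regions with a member called higher in WT and 0.751 over 90 with a member called neither higher nor lower, and some regions held both kinds. With scaling to reads in H3K4me3 regions the median was 0.426 over the 128 regions and 0.255 over all KAP1 regions. The labels and file names give the libraries of replicate 2 different roles. Taken by its labels, replicate 2 gave -1.081 and all KAP1 regions -0.816, the opposite sign.

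Genes that control L1 were read from a list of 25, of which 23 were tested. In WT 1 of 23 rose, Suv39h1, an H3K9 methyltransferase gene, by 1.21 on the log2 scale (edgeR adjusted p = 1.1e-07), and 1 fell, Trim28 itself. Of all tested genes 10.8% were called higher and 6.54% lower in WT. In each mutant line Trim28 alone was called. The medians of the list were -0.14, -0.18 and 0.02 in WT, DNMT TKO and TET TKO.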

How the data were processed

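RNA values were read counts that the authors made per gene and per repeat integrant. Per the paper's methods, reads were aligned with HISAT2, gene counts came from featureCounts, and repeat counts from bedtools multicov on a merged RepeatMasker track. The submitters' processing notes list HISAT2 2.0.1, featureCounts 1.5.1 and bedtools 2.25 with build mm9. The headers of the deposited gene counts name an alignment file by the default output name of TopHat, so the aligner behind the counts is uncertain. 5hmC values were deposited counts over region sets. Columns of other samples numbered 0.

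Integrants of the LINE, SINE, LTR and DNA classes with at least 16 reads over 16 libraries were tested in edgeR 4.0.16 (R 4.3.3) with robust quasi-likelihood F tests, library sizes and TMM factors from gene counts, a single fit for the 6 groups and p-values adjusted per contrast by the method of Benjamini and Hochberg. Calls required a change of 2-fold and an adjusted p under 0.05, and sums over all repeat names needed the adjusted p alone. CPM are counts scaled to 1000000 gene reads after TMM. Groups without a read were set to a floor of 3 reads over the group, and counting intervals are exact at 95% and cover counting error only. Ratios were tested by exact permutation within lines (Python 3.11.15, numpy 2.4.6). Strand and exons came from an annotation of the same build as the files. Coordinates of the repeat track were checked against the genome on CA or TG repeats, of which 90.1% of 2000 started at the listed base. A distance of 1 bp means adjoining. Overlaps used bedtools 2.31.1 with at least 1 bp. 5hmC needed at least 10 input reads per region and took a pseudocount of 1 read. H3K4me3 and H3K27me3 peak files were not used here beyond the region sets. The model was tested on simulated counts, but changes were set only in integrants with more reads than most members hold. That test gives no measure for members of few reads.

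Named integrants had the largest change among called ones with at least 200 reads and no overlap between groups. These were 4 rises and 2 falls each outside and in genes for WT, and 2 per direction for every other contrast. The 3 members with most reads and the 3 KAP1-bound members with most reads among those called higher in WT were added, with their hosts, Trim28, the Dnmt and Tet genes and the genes of the L1 control list called in WT. Further hosts and all neighbours were named after their values were seen. Members, lists and tests were chosen with earlier results of these data known. Deviations of same-numbered libraries correlated over genes at 0.118 to 0.274 between WT hairpins, 0.078 to 0.33 between DNMT TKO hairpins and 0.135 to 0.317 between WT and DNMT TKO shEmpty. Over TEs these were 0.022 to 0.071, 0.009 to 0.081 and 0.023 to 0.063, and over old L1 0.042 to 0.09, 0.023 to 0.154 and 0.013 to 0.111. TET TKO pairs stayed within -0.029 and 0.013. Not every pair passed 0.1 in the repeat counts, so the replicate number was not taken as their pairing, and whether it marks a batch of the gene counts was not tested. Alternatives covered scaling, read limits, limma-voom (limma 3.58.1), the Wald test of DESeq2 1.42.0, the replicate block, sums, gene distance, neighbour distance, overlap, 5hmC settings and leaving out each library. Replicate 2 of 5hmC was left out because labels and file names disagree.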

Additional observations from a re-analysis of the deposited data

Results flagged for a closer look

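The response to shKap1 differed between lines, by the interaction term of edgeR, for several named integrants. For DNMT TKO minus WT the log2 difference was 7.19 for the L1_Mus1 at chr3:74027784-74028125, 6.58 for the Lx8 at chr10:17968119-17968758, -6.07 for the L1_Mus1 at chr12:25021679-25022083 and -5.67 for the Lx9 at chr5:125859206-125859557. For TET TKO minus WT it was 6.91 for the L1_Mus3 at chr14:111370997-111371723, 6.06 for the L1_Mus1 at chr6:73633413-73639438, -6.15 for the same Lx9 and -5.05 for the L1_Mus2 at chr13:3492937-3493495. Groups of each of these but 1 included one without any read, the exception being the L1_Mus1 on chromosome 12 whose DNMT TKO groups held 3 and 4 reads, so that fitted values depend on the prior count and are no bounds.

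Over all 6332 members the difference was called higher for 93 and lower for 42 in DNMT TKO, and higher for 73 and lower for 25 in TET TKO. The shares over all TE integrants were 1.33% and 0.473% in DNMT TKO, and 0.831% and 0.242% in TET TKO. Of the 22 subfamily sums, 1 differed upward (Lx6) and 1 downward (Lx7) in DNMT TKO, and 15 upward and 0 downward in TET TKO (edgeR, with 0 downward at an unadjusted p below 0.05 and 0 by limma-voom). Over all repeat names these were 5.59% upward and 4.31% downward in DNMT TKO, and 6.7% and 2.73% in TET TKO. No group held 4 or more libraries, so no library was tested as standing apart within its group.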

How the results depend on the processing

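Of values for the counts, sums, ratios and shares, 825 under the alternatives kept direction and side of the threshold, 87 moved, 1 passed a threshold and 1 turned its sign. For single named integrants 955 kept the call or its absence, 635 of them with 1 library left out, 26 lost the call, 2 gained it and none turned. With at least 50 reads per integrant, members higher after shKap1 numbered 828 in WT, 789 in DNMT TKO and 850 in TET TKO, members lower 34 in DNMT TKO and 54 in TET TKO, and 73 higher interactions in TET TKO became 39. Fewer integrants were tested there. By DESeq2 the members higher were 766, 710 and 931 and those lower 72, 16 and 26, higher interactions 50 in DNMT TKO and 31 in TET TKO, and members without knockdown 167 higher and 258 lower in DNMT TKO and 94 and 76 in TET TKO. By limma-voom interactions were 213 higher and 139 lower in DNMT TKO and 179 higher in TET TKO. The cause of these moves between tools was not tested.

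The 1 higher subfamily interaction in DNMT TKO was 0 with DESeq2 size factors, 0 with scaling to TE reads, 3 by limma-voom and 2 without the 10 integrants of most reads. Without knockdown, subfamily sums higher in DNMT TKO were 8 with scaling to TE reads and 1 without those 10, and lower 1 with scaling to TE reads. In TET TKO they were 6 higher and 2 lower with that scaling, and 3 lower with sums over all annotated integrants. On the strand of host genes, scaling to TE reads gave 3 sums higher in DNMT TKO and 7 in TET TKO. With an overlap of at least 50% of the integrant, 0.458% lay on KAP1, 2.53% on H3K9me3, 1.52% on H3K4me3 and 0.774% on H3K27me3 regions. The 5hmC median was 0.783 with a pseudocount of 5, 0.879 with at least 30 input reads, 0.426 with scaling to H3K4me3 regions and -1.081 with replicate 2 by its labels. Within 5 kb, an LTR called higher lay by 53.7% of members called higher and 14.9% of those not called in WT, 46.9% and 16.4% in DNMT TKO, and 57.0% and 11.3% in TET TKO, and a gene called higher by 6.27% and 3.65% in WT.

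With 1 library left out at a time, members higher ran from 981 to 1314 in WT, 1031 to 1314 in DNMT TKO and 1241 to 1710 in TET TKO, and members lower from 104 to 148, 41 to 65 and 40 to 83, with 46, 40 and 43 in TET TKO without shEmpty replicate 2, shKap1 replicate 1 and shKap1 replicate 2. Interactions ran from 67 to 87 higher and 28 to 51 lower in DNMT TKO, and from 41 to 85 higher and 16 to 30 lower in TET TKO. The latter were 48 higher without WT shEmpty replicate 3, 43 and 41 without TET TKO shEmpty replicates 1 and 2, 45 without TET TKO shKap1 replicate 1, and 16 lower without WT shEmpty replicate 2. Without knockdown the range was 229 to 335 higher and 331 to 450 lower in DNMT TKO and 127 to 204 and 89 to 188 in TET TKO, with 127 higher and 104 lower without TET TKO shEmpty replicate 2 and 89 lower without replicate 1. Subfamily sums higher after shKap1 ran from 20 to 21, 19 to 19 and 21 to 21. Their interactions ran from 0 to 2 higher and 1 to 2 lower in DNMT TKO and from 14 to 16 higher and 0 to 0 lower in TET TKO. Without knockdown they ran from 3 to 3 higher and 5 to 7 lower in DNMT TKO and from 2 to 3 and 3 to 7 in TET TKO, and 5 were lower without WT shEmpty replicate 1 or any DNMT TKO shEmpty library, and 3 without TET TKO shEmpty replicate 1. By context they ran from 20 to 21, 21 to 21 and 22 to 22 outside genes, 9 to 12, 3 to 9 and 8 to 15 on the strand of the host (3 without DNMT TKO shEmpty replicate 2 and 8 without TET TKO shEmpty replicate 1), and 16 to 17, 19 to 21 and 18 to 19 on the opposite strand. The ratio of outside to in genes ran from 0.387 to 0.421, Lx to L1_Mus from -0.164 to -0.127, old L1 to L1Md_A from -1.444 to -1.39, to L1Md_T and L1Md_Gf from -0.553 to -0.339, and to L1Md_F from -0.56 to -0.521. That to L1Md_T and L1Md_Gf passed without TET TKO shEmpty replicate 2 (-0.553, exact permutation p = 0.049).

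With the replicate number as a block, members higher were 1111, 1149 and 1520 and members lower 122, 48 and 65, interactions 84 higher and 45 lower in DNMT TKO and 71 and 28 in TET TKO, and subfamily sums higher 22, 19 and 21. The exact permutation p of the context ratio was 0.0078, the smallest that 256 arrangements can give. The block moved no count by over 1.5 times. Of named calls it ended that of the Lx8 on chromosome 10 (edgeR adjusted p = 0.069). With a median of 38 reads per integrant, calls on single integrants are uncertain. A lone library left in a group by these fits is assumed to vary like the other groups.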
